A study of Mus musculus with 23 samples.

Results

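The Hippo pathway genes described here are 10 genes that were looked up by symbol among the 27179 genes of the deposited count table: the co-activators *Yap1* and *Wwtr1*, their DNA-binding partner *Tead1*, the regulators *Ajuba*, *Amotl1* and *Amotl2*, and the target genes *Ccn1*, *Ccn2*, *Ankrd1* and *Axl*. All 10 were found, each on 1 row. RNA was sequenced from liver tissue without visible tumors of 15 female mice. In all of them Alb-Cre, a recombinase driven by the albumin promoter and therefore active in hepatocytes, acted on 2 floxed *Trp53* alleles. Ctrl mice (n = 6) kept wild-type *Braf* and carried 1 floxed *Icmt* allele. ABpIF/+ mice (n = 6) also carried 1 floxed *Icmt* allele, and in addition the conditional *Braf* allele that makes oncogenic BRAF once Cre has acted. ABpIF/F mice (n = 3) carried that *Braf* allele with both *Icmt* alleles floxed. *Icmt* encodes the methyltransferase that finishes the processing of prenylated proteins such as RAS. The design text writes the mutant *Braf* genotype as BrafCA/+, whereas the sample labels of both mutant groups write BRAF +/+; the design text is followed here. All Ctrl mice but BG3 have a strain label of their own, and BG3 has that of the mutant mice, so strain label and group cannot be told apart except through that mouse. The labels give no age, and the study's 3 ABpIF/F mice differed in age.

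The Hippo pathway is a chain of kinases that restrains organ growth. MST kinases with their partner SAV1 activate the LATS kinases, which phosphorylate the co-activators YAP and TAZ (the product of *Wwtr1*) and keep them in the cytoplasm, whereas unphosphorylated YAP and TAZ enter the nucleus and switch on genes through TEAD factors. In the liver the pathway is known for its control of liver size, of the choice between hepatocyte and bile duct fate and of the activation of hepatic stellate cells. Because the activity of YAP and TAZ is set largely by phosphorylation, the RNA levels of *Yap1* and *Wwtr1* do not measure it.

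Promoter windows are shown for the 4 members of a published YAP/TAZ target signature that have a window in the RefSeq table (GRCm38.p6), because TEAD factors act through DNA next to such genes. Each window runs, on the strand of the gene, from 250 bases before to 50 bases after the start. Capitals mark the TEAD core motif, GGAATG on the strand of the gene or CATTCC where the match lies on the opposite strand. The windows are those of *Ankrd1* (chr19:36119795-36120094, minus strand), *Ccn1* (chr3:145649936-145650235, minus strand), *Amotl2* (chr9:102717554-102717853, plus strand) and *Axl* (chr7:25788684-25788983, minus strand).
Ankrd1: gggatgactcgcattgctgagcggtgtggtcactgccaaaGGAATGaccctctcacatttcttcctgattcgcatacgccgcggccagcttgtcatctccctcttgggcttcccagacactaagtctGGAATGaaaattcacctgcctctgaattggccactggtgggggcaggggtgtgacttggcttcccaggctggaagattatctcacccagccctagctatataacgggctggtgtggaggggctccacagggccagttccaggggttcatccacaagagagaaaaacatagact
Ccn1: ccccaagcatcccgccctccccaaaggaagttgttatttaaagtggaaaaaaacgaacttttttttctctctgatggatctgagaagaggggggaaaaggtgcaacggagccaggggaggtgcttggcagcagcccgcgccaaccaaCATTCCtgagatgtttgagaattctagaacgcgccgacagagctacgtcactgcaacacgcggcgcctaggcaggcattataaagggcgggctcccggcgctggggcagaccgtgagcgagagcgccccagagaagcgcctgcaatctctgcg
Amotl2: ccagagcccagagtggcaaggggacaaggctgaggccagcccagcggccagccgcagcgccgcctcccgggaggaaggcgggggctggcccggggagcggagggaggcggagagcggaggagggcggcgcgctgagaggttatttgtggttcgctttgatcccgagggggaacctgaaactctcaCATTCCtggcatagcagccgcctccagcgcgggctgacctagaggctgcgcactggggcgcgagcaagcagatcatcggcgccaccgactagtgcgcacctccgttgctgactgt
Axl: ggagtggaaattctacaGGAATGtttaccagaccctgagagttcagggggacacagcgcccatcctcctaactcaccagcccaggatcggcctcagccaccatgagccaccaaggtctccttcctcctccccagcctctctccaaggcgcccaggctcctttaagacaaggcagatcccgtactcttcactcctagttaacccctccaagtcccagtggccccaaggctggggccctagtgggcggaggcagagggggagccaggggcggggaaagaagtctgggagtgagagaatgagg

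*Ankrd1* held the core motif in 2 places, with first bases 210 and 123 bases before the start. In *Ccn1* it began 103 bases before the start, in *Amotl2* 65 and in *Axl* 233. Windows were found for 8 of the 10 members, and 7 of the 8 held GGAATG on either strand, against 14.7% of the 32851 promoter windows in the table. *Yap1*, *Wwtr1* and *Ajuba* were the other 3 with a match, and *Amotl1* had none. The CArG box, the motif of the serum response factor, was found in 0 of the 8 members with a window and in 1.63% of all windows. A match describes only the letters of the window and says nothing of binding in these livers.

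Each mouse had 24742910 to 32262649 reads assigned to genes. Levels are given as CPM, counts scaled to a common library size by the TMM method of edgeR. A gene was called in a comparison where the quasi-likelihood test of edgeR gave a p, adjusted by Benjamini-Hochberg over all 27179 genes, under 0.01 together with at least a 2-fold change. The targeted gene *Icmt* was between 15.2 and 16.6 CPM in the 3 ABpIF/F mice, below the 27.8 to 34.7 of Ctrl and the 27.8 to 37.4 of ABpIF/+ mice. The hepatocyte marker *Alb* was at 76790 CPM or more in every mouse. Libraries were not equal in composition: the TMM factor of the ABpIF/F mouse BG38 was 1.24, outside the range of 0.846 to 1.09 of the other 14 mice. BG38 had the highest CPM of the 3 ABpIF/F mice in 9 of the 10 members, against 36.9% of the 12316 genes averaging at least 1 CPM, and the highest of all 15 mice in 8 of the 10, against 15.8% of those genes. Calls of the ABpIF/F group that are named here and were lost without BG38 are therefore given with their value without it. Nothing in the labels says that the mice of a group came from separate litters, so p-values measure the spread between these mice.

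*Yap1* RNA, which encodes the main co-activator of the pathway, was at nearly the same level in all groups. It lay on chromosome 9 (GRCm38, 7931999 to 8004596). Its lowest, median and highest values were 62.8, 70.8 and 75.9 CPM in the 6 Ctrl mice and 57.9, 62.8 and 73.2 CPM in the 6 ABpIF/+ mice, and the 3 ABpIF/F mice, given here and for the other members in the order BG38, BG90 and BG183, had 74.6, 77.7 and 78.2 CPM. The ABpIF/F mice lay above every ABpIF/+ mouse and overlapped with Ctrl. No comparison reached the threshold: the log2 fold change was -0.15 in ABpIF/+ vs Ctrl (95% interval -0.34 to 0.04), 0.13 in ABpIF/F vs Ctrl (-0.11 to 0.36) and -0.27 in ABpIF/+ vs ABpIF/F (-0.51 to -0.04, adjusted p = 0.103 by edgeR). All 3 intervals lie well within 2-fold in either direction. In ABpIF/+ vs ABpIF/F DESeq2 gave -0.29 with an adjusted p of 0.00803, which passed the p threshold and was not called because it was under 2-fold.

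*Wwtr1*, which encodes the YAP paralog TAZ, rose in ABpIF/+ livers and had intermediate levels in ABpIF/F livers. The gene lies on chromosome 3 (57455649 to 57575910). Ctrl mice had 13.2 CPM at the lowest, 16.5 at the median and 20.1 at the highest, and ABpIF/+ mice 37.4, 42.9 and 46.4 CPM, while the ABpIF/F mice had 33.4, 29.6 and 26.1 CPM. The 3 groups did not overlap, with Ctrl lowest, ABpIF/F between and ABpIF/+ highest. The change in ABpIF/+ vs Ctrl was 2.54-fold (log2 fold change 1.35, SE, the standard error, 0.11, adjusted p = 5.74e-09 by edgeR) and was called. In ABpIF/F vs Ctrl the log2 fold change was 0.83 (SE 0.13, adjusted p = 8.06e-05 by edgeR), which passed the p threshold at 1.77-fold and was therefore not called. ABpIF/+ and ABpIF/F livers differed by 0.52 on the log2 scale (95% interval 0.24 to 0.80, adjusted p = 0.00933 by edgeR), also under 2-fold.

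Because both co-activators share TEAD partners, their levels were set against each other within each mouse, per kilobase of annotated exon, a ratio that does not depend on the scaling of the library. The *Wwtr1* level per kilobase was 0.461 ± 0.0723 (SD, n = 6) of that of *Yap1* in Ctrl livers, with a range of 0.357 to 0.553. In ABpIF/+ livers the ratio was 1.30 ± 0.127 (SD, n = 6) and above 1 in 6 of 6 mice. The 3 ABpIF/F mice had ratios of 0.868, 0.737 and 0.648, between the ranges of the other groups. The size of the ratio depends on the exon lengths used, the order of the groups does not. It is a description, with no test.

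*Tead1*, which encodes a TEAD factor that YAP and TAZ bind, changed little. The gene lies on chromosome 7 (112679318 to 112906807). Its lowest, median and highest CPM were 11.5, 14.6 and 18.9 in Ctrl and 13.6, 18.1 and 22.4 in ABpIF/+ mice, and the ABpIF/F mice had 25.1, 21.3 and 15.8 CPM. All 3 groups overlapped. The log2 fold change was 0.31 (95% interval 0.01 to 0.61) in ABpIF/+ vs Ctrl and 0.49 (0.13 to 0.85, adjusted p = 0.0578 by edgeR) in ABpIF/F vs Ctrl, and neither was called. ABpIF/+ and ABpIF/F livers differed by -0.18 (-0.54 to 0.18).

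**Figure D1:**
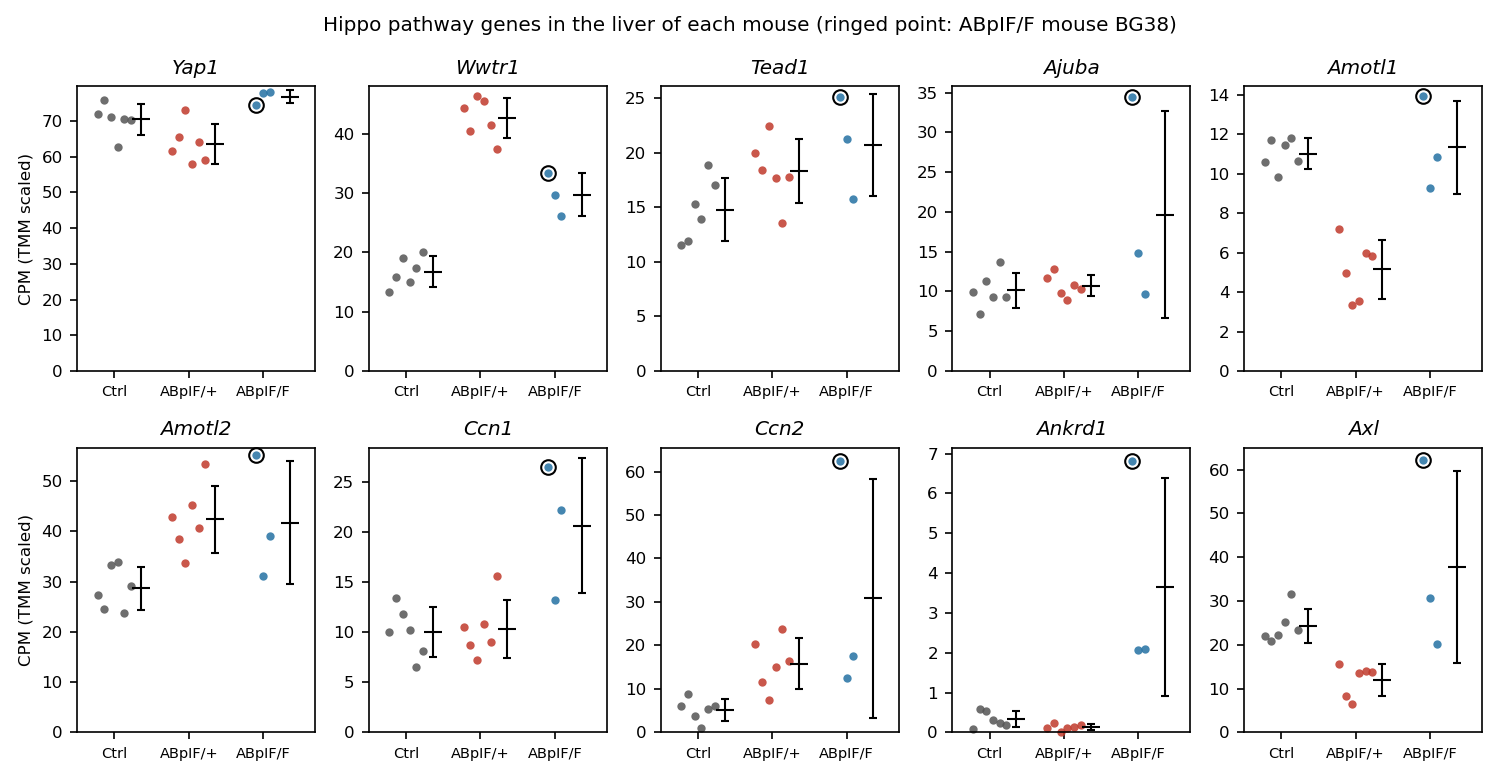
CPM (TMM scaled, linear axis from 0) of the 10 Hippo pathway genes in each of the 15 mice, in 1 panel per gene, with points for mice, bars for the group mean ± SD and a ring around the ABpIF/F mouse BG38. *Wwtr1* separates the 3 groups, *Amotl1* and *Axl* are low in all 6 ABpIF/+ mice, *Ankrd1* is above 2 CPM only in the 3 ABpIF/F mice, and BG38 is the highest mouse in 8 panels.

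Of the 3 regulators, *Amotl1* fell in ABpIF/+ livers and the other 2 were not called in any comparison. Angiomotin-like proteins hold YAP at cell junctions and in the cytoplasm, and *Amotl2* is itself a transcriptional target of YAP. *Amotl1* (chromosome 9, 14541966 to 14645056) was at 9.82, 11.1 and 11.8 CPM in Ctrl mice (lowest, median and highest) and at 3.37, 5.41 and 7.20 CPM in ABpIF/+ mice. The ABpIF/F mice, at 13.9, 9.29 and 10.9 CPM, lay on both sides of the Ctrl range, with BG38 above it, BG90 just below it and BG183 within it, and all ABpIF/+ mice lay below both other groups. In ABpIF/+ vs Ctrl the log2 fold change was -1.09 (SE 0.17, adjusted p = 3.16e-05 by edgeR), in ABpIF/F vs Ctrl 0.04 (95% interval -0.37 to 0.46) and in ABpIF/+ vs ABpIF/F -1.14 (SE 0.20, adjusted p = 0.000305 by edgeR). Both calls lie close to the 2-fold threshold. Without the ABpIF/+ mouse BG40 the first was -0.998 and without BG38 the second was -0.96, and neither was then called.

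*Amotl2* (chromosome 9, 102716672 to 102733418) was higher in ABpIF/+ than in Ctrl livers by less than 2-fold. Ctrl mice had 23.8, 28.3 and 33.8 CPM (lowest, median and highest), ABpIF/+ mice 33.7, 41.7 and 53.3 CPM, and ABpIF/F mice 55.1, 31.0 and 39.0 CPM. The lowest ABpIF/+ mouse lay just under the highest Ctrl mouse, and 1 of the ABpIF/F mice lay within the Ctrl range. The log2 fold change was 0.56 (SE 0.14, adjusted p = 0.00346 by edgeR) in ABpIF/+ vs Ctrl and 0.54 (SE 0.17, adjusted p = 0.0253 by edgeR) in ABpIF/F vs Ctrl. The difference of the mutants was 0.02 (95% interval -0.33 to 0.37). Within a mouse, *Amotl1* per kilobase was 0.246 ± 0.0493 (SD, n = 6) of *Amotl2* in Ctrl, 0.0764 ± 0.0205 (SD, n = 6) in ABpIF/+ and 0.173 ± 0.0146 (SD, n = 3) in ABpIF/F livers. The ABpIF/+ range, 0.0489 to 0.105, lay below those of the other groups.

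*Ajuba*, a LIM protein that binds the LATS kinases and restrains them, was high in 1 mouse. It lies on chromosome 14 (54567472 to 54577558). Ctrl mice had 7.18, 9.66 and 13.7 CPM (lowest, median and highest), ABpIF/+ mice 8.98, 10.5 and 12.8 CPM, and ABpIF/F mice 34.5, 14.9 and 9.66 CPM, the first value being that of BG38. All 3 groups overlapped. The log2 fold change in ABpIF/F vs Ctrl was 0.96 (SE 0.27, adjusted p = 0.0195 by edgeR) and fell to 0.28 without BG38, whereas without BG183 it was 1.28 and was called. In ABpIF/+ vs Ctrl it was 0.08 (95% interval -0.41 to 0.57). The difference of the mutants was -0.88 (95% interval -1.45 to -0.30), -0.19 without BG38, and without BG183 it was called at -1.20.

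All 4 target genes were highest on average in ABpIF/F livers, *Ccn2* through BG38, and *Ankrd1* exceeded 1 CPM in no other group. *Ankrd1* encodes a cardiac ankyrin repeat protein that is widely used as a readout of YAP and TAZ, and it lies on chromosome 19 (36111961 to 36120099). Ctrl mice had 0.0820, 0.285 and 0.596 CPM (lowest, median and highest), from 2 to 16 counts. ABpIF/+ mice had from 0 to 6 counts, with a median of 0.130 and a highest value of 0.242 CPM. The mouse with 0 counts, BG40, allows a level of up to 0.116 CPM (3 counts, counting error only). The ABpIF/F mice had 6.81, 2.07 and 2.09 CPM, or 246, 58 and 64 counts, each above all 12 mice of the other groups.

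In ABpIF/F vs Ctrl *Ankrd1* rose 11.0-fold (log2 fold change 3.46, SE 0.51, adjusted p = 3.75e-05 by edgeR). Without BG38 the log2 fold change was 2.65 and still called. In ABpIF/+ vs ABpIF/F it was -4.74 (SE 0.56, adjusted p = 6.09e-06 by edgeR), and without BG38 -3.92. The lower level of ABpIF/+ than of Ctrl livers, a log2 fold change of -1.28 (95% interval -2.43 to -0.13), was not called (adjusted p = 0.103 by edgeR). With BG3 as the only Ctrl mouse this value was 0.67, BG3 having the lowest Ctrl level.

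*Ccn2*, which encodes the secreted matricellular protein also called connective tissue growth factor, rose in ABpIF/F livers, most of all in BG38. It lies on chromosome 10 (24595442 to 24598683). The lowest, median and highest values were 1.12, 5.73 and 8.75 CPM in Ctrl and 7.47, 15.7 and 23.8 CPM in ABpIF/+ mice, and the ABpIF/F mice had 62.5, 12.4 and 17.6 CPM. In ABpIF/F vs Ctrl the groups did not overlap, and in ABpIF/+ vs Ctrl only the lowest ABpIF/+ mouse, BG40, lay within the Ctrl range. The change was called in ABpIF/F vs Ctrl, with a log2 fold change of 2.58 (SE 0.56, adjusted p = 0.0057 by edgeR). It was lost without BG38, at 1.54, and also, at nearly the same size, without the Ctrl mice BG3 (2.63), malpa454 (2.50), malpa459 (2.60) or malpa462 (2.63) or the ABpIF/+ mouse BG175 (2.50). In ABpIF/+ vs Ctrl the log2 fold change was 1.61 (SE 0.49, adjusted p = 0.0283 by edgeR), past 2-fold and short of the p threshold, and it was called in 5 of the 25 alternative analyses, among them the one without BG38 (1.61). The mutant groups differed by -0.97 (95% interval -2.17 to 0.24), which became 0.071 without BG38.

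*Ccn1*, the paralog of *Ccn2* that encodes another matricellular protein, also rose in ABpIF/F livers. It lies on chromosome 3 (145646976 to 145649981). Ctrl mice had 6.50, 10.1 and 13.4 CPM (lowest, median and highest), ABpIF/+ mice 7.27, 9.77 and 15.6 CPM, and ABpIF/F mice 26.5, 13.3 and 22.2 CPM. The lowest ABpIF/F mouse, BG90, lay within the range of both other groups, and the other 2 lay above them. In ABpIF/F vs Ctrl the log2 fold change was 1.05 (SE 0.24, adjusted p = 0.00322 by edgeR), and in ABpIF/+ vs Ctrl 0.05 (95% interval -0.37 to 0.47). For ABpIF/+ vs ABpIF/F it was -0.998 (SE 0.24, adjusted p = 0.00489 by edgeR), just short of 2-fold, and 6 of 25 alternative analyses called it, among them those without BG30 (-1.002), BG55 (-1.01), BG175 (-1.11) or BG90 (-1.23). The call against Ctrl was as close to the threshold: it held in 16 of 25 alternatives, and without BG38 the value was 0.83. It was also lost without malpa459 (0.95), malpa462 (0.99), BG175 (0.98) or BG183 (0.99).

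*Axl*, a receptor tyrosine kinase for the ligand GAS6 that is also expressed by macrophages and stellate cells, fell in ABpIF/+ livers. It lies on chromosome 7 (25757273 to 25788705). The lowest, median and highest values were 20.9, 22.9 and 31.5 CPM in Ctrl and 6.50, 13.8 and 15.6 CPM in ABpIF/+ mice, and the ABpIF/F mice had 62.3, 30.7 and 20.3 CPM. All ABpIF/+ mice lay below every other mouse, and ABpIF/F overlapped with Ctrl. The log2 fold change was -1.02 (SE 0.26, adjusted p = 0.00771 by edgeR) in ABpIF/+ vs Ctrl, 0.64 (95% interval -0.003 to 1.29, and 0.07 without BG38) in ABpIF/F vs Ctrl and -1.66 (SE 0.30, adjusted p = 0.00113 by edgeR) in ABpIF/+ vs ABpIF/F. The call against Ctrl was the least stable, holding in 13 of 25 alternatives with values from -1.11 to -0.88. It was lost without each of the Ctrl mice BG3 (-1.04), malpa387 (-1.05), malpa454 (-1.04), malpa458 (-1.004), malpa459 (-0.92) and malpa462 (-1.02), and without the ABpIF/+ mice BG31 (-0.93), BG40 (-0.89) and BG55 (-1.06). The difference between the mutants was -1.09 without BG38 and still called.

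Counted over the 10 members, 1 was called upregulated and 2 downregulated in ABpIF/+ vs Ctrl, where edgeR called 4.69% of all 27179 genes upregulated and 5.35% downregulated. Among the 12316 genes averaging at least 1 CPM, as all members but *Ankrd1* have, these shares were 8.21% and 9.39%. The CPM of the groups did not overlap in 3 members, *Wwtr1*, *Amotl1* and *Axl*, against 31.3% of the genes with at least 1 CPM. Without BG40 *Wwtr1* was the 1 member called. In ABpIF/F vs Ctrl 3 members were called upregulated and 0 downregulated, beside 4.55% and 2.38% of all genes and 7.53% and 5.04% of those with at least 1 CPM. At an unadjusted p under 0.05 0 of the 10 fell there either, as with DESeq2, all 10 log2 fold changes being above 0. Groups did not overlap in *Ccn2*, *Ankrd1* and *Wwtr1*, 3 of 10, against 31.6%. Without BG38 *Ankrd1* was the 1 member still called, and leaving out the Ctrl mice malpa459 or malpa462 or the ABpIF/+ mouse BG175 also left 1.

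In ABpIF/+ vs ABpIF/F 0 members were called upregulated and 3 downregulated, where 1.76% and 5.49% of all genes and 3.72% and 8.50% of those with at least 1 CPM were called. *Wwtr1* was higher in ABpIF/+ at an adjusted p of 0.00933 in edgeR, under 2-fold, and was the 1 member higher there at an unadjusted p under 0.05, while DESeq2 called 0 upregulated. The groups did not overlap in 5 members, against 34.2%: *Ankrd1*, *Amotl1*, *Yap1* and *Axl*, lower in ABpIF/+, and *Wwtr1*, higher. The median log2 fold change of the 10 members was 0.07, 0.74 and -0.92 in the 3 comparisons, beside 0.02, -0.0008 and 0.04 for the genes with at least 1 CPM. Comparisons against Ctrl share the Ctrl mice and are therefore not independent.

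**Figure D2:**
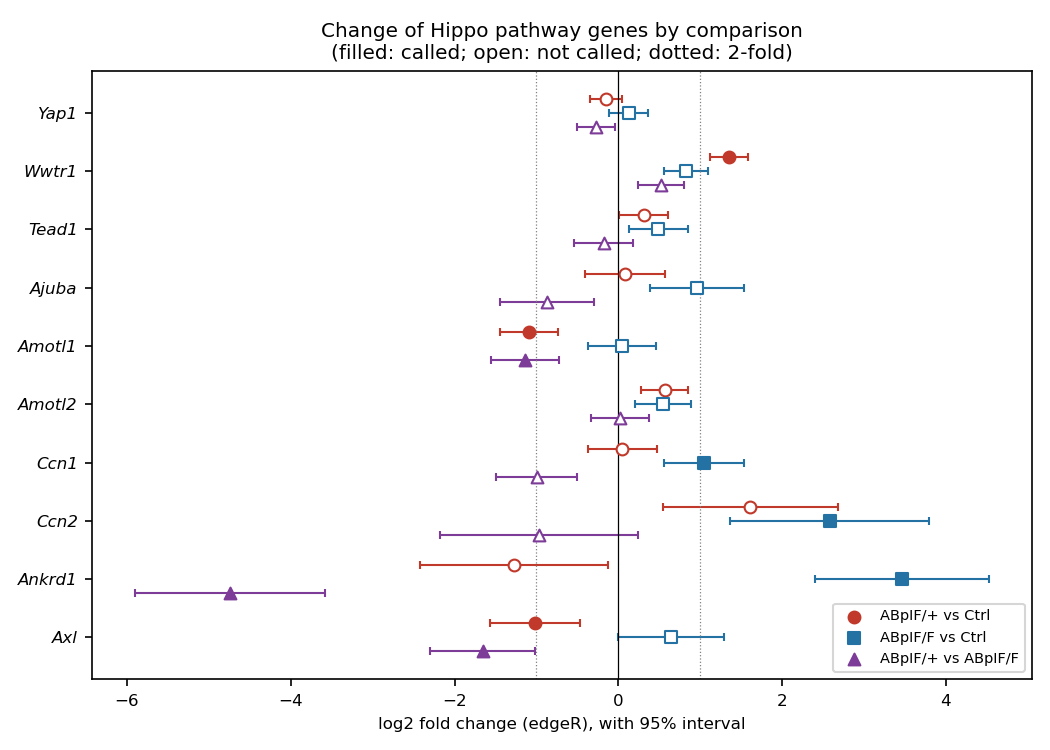
Log2 fold change (edgeR) of the 10 Hippo pathway genes with its 95% interval in the 3 comparisons, in rows by gene, with filled symbols for called and open symbols for not called changes and dotted lines at 2-fold. *Wwtr1* is called up and *Amotl1* and *Axl* down in ABpIF/+ vs Ctrl, *Ccn1*, *Ccn2* and *Ankrd1* up in ABpIF/F vs Ctrl, and the intervals of *Yap1* lie within 0.6 of 0.

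Per kilobase of exon the order of the members changed between groups. In Ctrl livers *Yap1* came first at 7.61 CPM per kilobase on average, followed by *Ccn1* (4.96), *Axl* (4.81), *Amotl2* (4.56) and *Wwtr1* (3.50), and these last 4 overlapped from neighbour to neighbour. *Ajuba* (2.78), *Ccn2* (1.81), *Amotl1* (1.10) and *Tead1* (1.09) followed, and *Ankrd1* came last at 0.113. In ABpIF/+ livers *Wwtr1* came first at 8.91 CPM per kilobase, with a range of 7.84 to 9.70 that overlapped with the 6.26 to 7.91 of *Yap1*. In ABpIF/F livers *Ccn2* (10.8) and *Ccn1* (10.2) had the highest means, and their ranges of 4.35 to 21.8 and 6.56 to 13.1 overlapped with those of *Yap1*, *Axl* and *Amotl2*. The first place of *Ccn2* rests on BG38: over the other 2 mice it averaged 5.25 CPM per kilobase, below *Ccn1* (8.79) and *Yap1* (8.42) and below its own mean of 5.51 in ABpIF/+ livers.

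Beyond the members, a published YAP/TAZ target signature of 22 genes was described, which includes *Ccn1*, *Ccn2*, *Ankrd1*, *Amotl2* and *Axl*. In ABpIF/+ vs Ctrl 0 of its genes were called upregulated and 4 downregulated, in ABpIF/F vs Ctrl 7 were upregulated and 1 downregulated, and in ABpIF/+ vs ABpIF/F 1 was upregulated and 8 were downregulated. The shares called up and down among genes with at least 1 CPM were 8.21% and 9.39%, 7.53% and 5.04%, and 3.72% and 8.50%. Without the 5 members, 17 signature genes remain. Of these 0 rose and 3 fell in the first comparison, 4 and 1 in the second, and 1 and 6 in the third. Beside the 0 of the first comparison, 4 signature genes were higher at an unadjusted p under 0.05 in edgeR. DESeq2 called 2 upregulated there, as did edgeR without BG38. Without malpa387, malpa462 or BG31 2 genes were called there, both downregulated. The median log2 fold change was 0.02, 0.55 and -0.80, beside the medians near 0 of the genes with at least 1 CPM. The signature gene *Foxf2* had no count in any mouse, and a count of 0 allows between 0.0831 and 0.123 CPM in these libraries (3 counts each).

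In ABpIF/F livers the largest rises outside the members were those of *Tgfb2*, a TGF-beta ligand, *Fjx1*, a Golgi protein related to Drosophila four-jointed, and *Myof*, a membrane repair protein. *Tgfb2* was at 0.353 to 0.995 CPM in Ctrl and at 2.77 to 11.3 CPM in ABpIF/F mice (log2 fold change 3.18, SE 0.43). *Fjx1* was low throughout, at 0 to 8 counts in Ctrl and 12 to 88 in ABpIF/F mice (3.07, SE 0.72). *Myof* was at 1.80 to 4.10 CPM in Ctrl and 4.24 to 24.6 CPM in ABpIF/F mice (2.11, SE 0.44). *Nt5e*, which encodes an ecto-nucleotidase, went the other way, at 49.0 to 59.4 CPM in Ctrl, 25.6 to 41.8 in ABpIF/+ and 13.8 to 16.5 in ABpIF/F mice, with no overlap between the groups (-1.90 in ABpIF/F vs Ctrl, SE 0.15). Without BG38 *Tgfb2* was still called (2.17), whereas *Fjx1* (1.79) and *Myof* (1.01) were not. The 3 signature genes then called in ABpIF/F vs Ctrl were *Ankrd1* and *Tgfb2*, upregulated, and *Nt5e*, downregulated (-1.86).

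The 3 signature genes that fell furthest in ABpIF/+ vs Ctrl were *Rbms3*, which encodes an RNA-binding protein, *Ccdc80*, which encodes a secreted matrix protein, and *Arhgef17*. *Rbms3* was at 3.98 to 5.77 CPM in Ctrl and 0.890 to 1.95 CPM in ABpIF/+ mice (log2 fold change -1.91, SE 0.24). *Ccdc80* was at 8.79 to 13.4 CPM in Ctrl and 1.37 to 4.83 CPM in ABpIF/+ mice (-1.84, SE 0.28). *Arhgef17* was at 3.50 to 5.74 CPM in Ctrl and 0.989 to 2.75 CPM in ABpIF/+ mice (-1.19, SE 0.30). All 3 were also called lower in ABpIF/+ than in ABpIF/F livers, and without BG38 *Rbms3* (-1.65) and *Ccdc80* (-1.76) still were, whereas *Arhgef17* (-1.14) was not.

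Among the pathway's own regulators, 26 kinases and upstream proteins and 7 TEAD and VGLL factors, most were not called. The core kinase genes *Stk3*, *Stk4*, *Lats1* and *Lats2* and the adaptor *Sav1* were not called in any comparison. In ABpIF/+ vs Ctrl 4 of the 33 were called upregulated and 3 downregulated, in ABpIF/F vs Ctrl 5 and 0 (2 were lower there at an unadjusted p under 0.05, and DESeq2 called 0 lower), and in ABpIF/+ vs ABpIF/F 1 and 4. Among the genes averaging at least 1 CPM, 8.21% were called up and 9.39% down in ABpIF/+ vs Ctrl. These shares were 7.53% and 5.04% in ABpIF/F vs Ctrl, and 3.72% and 8.50% in ABpIF/+ vs ABpIF/F. *Lats2* and *Ptpn14* stand in both the regulator list and the signature.

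*Wtip* and *Amot*, relatives of *Ajuba* and of the *Amotl* genes, rose in both mutant groups. *Wtip* was at 1.34 to 2.98 CPM in Ctrl, 16.8 to 25.0 in ABpIF/+ and 6.75 to 11.4 in ABpIF/F mice, with no overlap (log2 fold change 3.42 in ABpIF/+ and 2.25 in ABpIF/F vs Ctrl). *Amot* was at 4.35 to 9.43 CPM in Ctrl, 25.4 to 45.8 in ABpIF/+ and 20.0 to 36.8 in ABpIF/F mice (2.26 and 1.97). *Tead4*, a TEAD factor that is nearly silent in Ctrl livers at 2 to 14 counts, was at 1.73 to 3.02 CPM in ABpIF/+ and 1.86 to 7.89 CPM in ABpIF/F mice (3.01 and 3.91). *Rassf1*, a scaffold of the MST kinases, was called up in ABpIF/+ vs Ctrl (1.09). Called down there were *Fat4* (-1.28) and *Dchs1* (-1.18), which encode the large cadherins upstream of the pathway, and *Mob1b* (-1.27), a co-activator of LATS.

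*Tead2* and *Ptpn14*, the latter a phosphatase that binds YAP, rose in ABpIF/F livers without a call in ABpIF/+. *Tead2* was at 0.708 to 1.52 CPM in Ctrl, 0.766 to 1.47 in ABpIF/+ and 2.28 to 9.72 in ABpIF/F mice, with log2 fold changes of 2.16 in ABpIF/F vs Ctrl and -2.24 in ABpIF/+ vs ABpIF/F. *Ptpn14* was at 1.97 to 3.85, 1.40 to 2.73 and 5.09 to 17.2 CPM in the same order of groups (1.60 and -2.16). Also lower in ABpIF/+ than in ABpIF/F livers were *Map4k1*, a kinase of blood cells (-1.88), and *Dchs1* (-1.31). *Vgll1* and *Vgll2* had no count in any mouse. Without BG38 *Tead2* (1.23) and *Ptpn14* (0.84) were no longer called in ABpIF/F vs Ctrl, and *Wtip* (2.05), *Amot* (1.75) and *Tead4* (2.91) were the 3 of the 33 still called. In ABpIF/+ vs ABpIF/F *Ptpn14* (-1.40), *Dchs1* (-1.21) and *Wtip* (1.37) were then called, and *Tead2* (-1.31) and *Map4k1* (-1.51) were not.

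**Figure D3:**
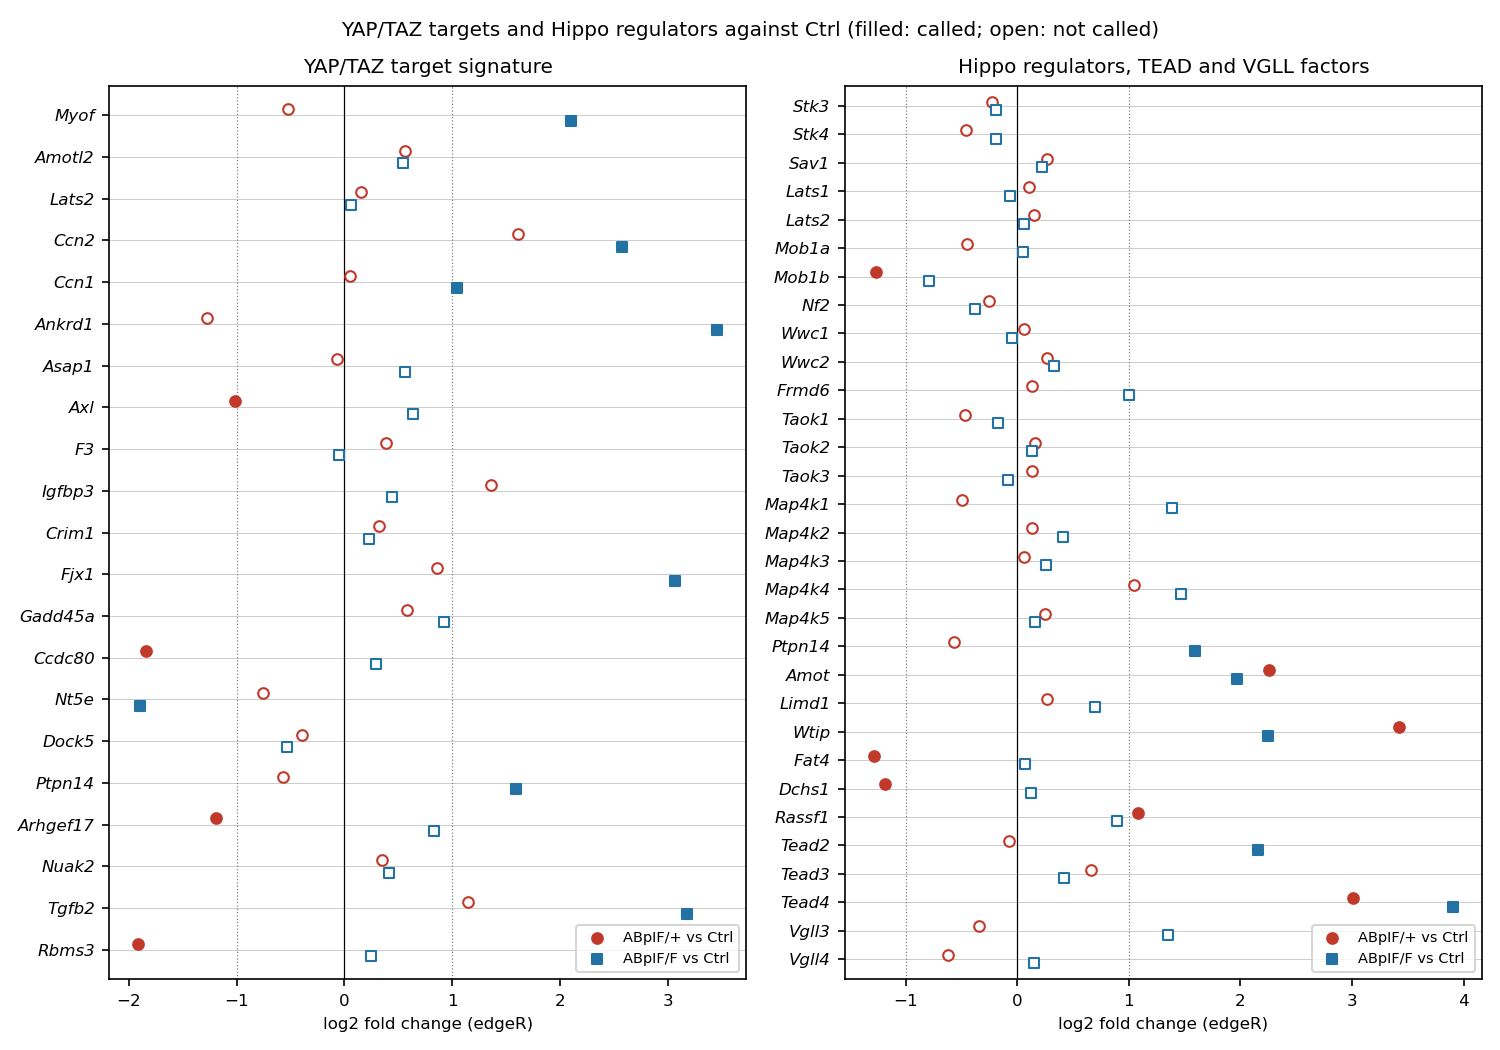
Log2 fold change (edgeR) against Ctrl of the genes of the YAP/TAZ target signature (left) and of the Hippo regulators with the TEAD and VGLL factors (right), in ABpIF/+ (circles) and ABpIF/F (squares) livers, filled where called, without the 3 genes that have no count. In the signature 7 squares are filled to the right of 0 and 4 circles to the left, and *Wtip*, *Amot* and *Tead4* are filled to the right for both groups.

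Several members are expressed by liver cells other than hepatocytes, so marker lists of these cells were summed in each mouse. In bulk tissue, fewer cells of a type and less RNA per cell cannot be told apart. Markers of hepatic stellate cells and fibroblasts (14 genes) summed to 236 to 310 CPM in Ctrl, 64.1 to 134 in ABpIF/+ and 257 to 418 in ABpIF/F mice. Of these 10 fell in ABpIF/+ vs Ctrl, led by the collagen genes *Col3a1* (-4.32) and *Col1a1* (-4.30) and by *Lum* (-3.32), and 0 rose. In ABpIF/F vs Ctrl 1 rose (0 without BG38) and 0 fell. The study's picrosirius red staining went the other way, with more periportal collagen in ABpIF/+ livers and markedly less in ABpIF/F than in ABpIF/+ livers. That stain shows collagen deposits, not RNA. Kupffer cell and macrophage markers (12 genes) summed to 441 to 613, 186 to 326 and 376 to 918 CPM, and 7 fell in ABpIF/+ vs Ctrl, with *Adgre1* (-1.92) and *Timd4* (-1.85) foremost. Markers of sinusoidal endothelial cells (12 genes) summed to 335 to 482, 170 to 372 and 389 to 541 CPM, and 2 of them fell in ABpIF/+ vs Ctrl. No marker of these 3 lists was at 0 in every mouse of a group. The ABpIF/+ livers thus had low values of *Axl*, *Amotl1*, *Ccdc80*, *Rbms3* and *Arhgef17* together with low values of stellate cell and macrophage markers. The part of these markers in those results was not tested.

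Markers of cholangiocytes, the epithelial cells of the bile ducts, went with the ABpIF/F group. Their 12 genes summed to 59.0 to 100 CPM in Ctrl and 58.4 to 189 in ABpIF/+ mice. BG38 had 1274, BG90 870 and BG183 264 CPM, all above the other 12 mice. Most of these sums was 1 gene, *Spp1*, at 175 to 1081 CPM in ABpIF/F mice. *Krt19* averaged 3.03 and *Epcam* 6.36 CPM there, against 1.42 and 1.98 in Ctrl. The median gene of each mouse lay 1.38 to 2.92 above the Ctrl mean (log2) in ABpIF/F and -1.10 to 0.66 from it in ABpIF/+ mice. Of the list 9 rose (6 without BG38) and 0 fell in ABpIF/F vs Ctrl, led by *Spp1* (3.91), *Sox9* (3.70) and *Cd24a* (3.22), and 2 rose and 2 fell in ABpIF/+ vs Ctrl. BG38, the mouse with the highest *Ankrd1*, *Ccn1*, *Ccn2*, *Ajuba* and *Axl*, was also highest in the summed markers of cholangiocytes, of stellate cells and of macrophages, and lowest of the ABpIF/F mice in those of hepatocytes, at 171095 CPM. Their part in the ABpIF/F values was not tested.

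Mesothelial markers (8 genes) were low, at 3.54 to 12.2, 5.05 to 18.0 and 7.70 to 19.7 CPM, with 1 up and 1 down in ABpIF/+ vs Ctrl and 0 in ABpIF/F vs Ctrl. Hepatocyte markers (12 genes) summed to 118868 to 159006 CPM in Ctrl, 228195 to 305592 in ABpIF/+ and 171095 to 267369 in ABpIF/F mice. Most of each sum was *Alb*, and the typical marker differed from the sum. The median gene of each mouse lay 0.25 to 0.82 above the Ctrl mean (log2) in ABpIF/+ and -0.66 to 0.04 from it in ABpIF/F mice. Of the 12 genes 4 rose and 0 fell in ABpIF/+ vs Ctrl, and 3 rose and 3 fell in ABpIF/F vs Ctrl (4 and 1 without BG38).

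*Ccn1*, *Ccn2* and *Ankrd1* also answer to serum and growth factors, so immediate early genes were described beside them. Of 12 such genes 9 rose in ABpIF/+ vs Ctrl and 6 in ABpIF/F vs Ctrl, and 0 fell in either. *Btg2* (log2 fold change 4.79), *Fos* (4.04) and *Egr1* (3.86) led in ABpIF/+ livers. The list summed to 67.8 to 138 CPM in Ctrl, 433 to 916 in ABpIF/+ and 253 to 361 in ABpIF/F mice. This sum was highest in ABpIF/+ livers, where *Egr1* (mean 230 CPM) and *Btg2* (181 CPM) made up much of it. By the median gene of each mouse the mutant groups overlapped. That median lay 1.36 to 2.59 above the Ctrl mean (log2) in ABpIF/+ and 1.35 to 2.45 in ABpIF/F mice. In ABpIF/+ vs ABpIF/F 3 of the 12 were called upregulated (1 without BG38) and 0 downregulated. In ABpIF/+ livers *Ccn2* was 1.61 higher than in Ctrl on the log2 scale, short of the p threshold with all mice in the fit. It was called there in 5 of 25 alternatives. *Ccn1* was 0.05 higher and *Ankrd1* 1.28 lower, and neither was called. The part of growth factor signals in these levels was not tested.

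Clock genes differed between the groups as well. The score of 16 of them, the mean of centred log2 CPM, was 0.283 to 0.647 in ABpIF/+ and -1.30 to -0.289 in ABpIF/F mice, with no overlap, and -1.07 to 0.275 in Ctrl mice. All 16 entered the score with the same sign, although they did not move together. *Ciart* averaged 15.5 CPM in Ctrl and 0.701 in ABpIF/F mice, *Npas2* 0.800 and 9.67. The score is therefore no measure of the phase of the clock, and using it as a covariate does not adjust for the time of day. Of the list 4 rose and 0 fell in ABpIF/+ vs Ctrl, and 0 rose and 5 fell in ABpIF/F vs Ctrl (0 and 2 without BG38). With the score as a covariate *Ankrd1* was still called in ABpIF/F vs Ctrl and *Wwtr1* and *Amotl1* in ABpIF/+ vs Ctrl. The calls of *Ccn1* (1.02) and *Ccn2* (2.17) in ABpIF/F vs Ctrl and of *Axl* (-0.99) in ABpIF/+ vs Ctrl were lost. In ABpIF/+ vs ABpIF/F, where score and group cannot be told apart, 0 members were called. There the log2 fold changes were -4.10 for *Ankrd1*, -1.59 for *Axl* and -1.11 for *Amotl1*.

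**Figure D4:**
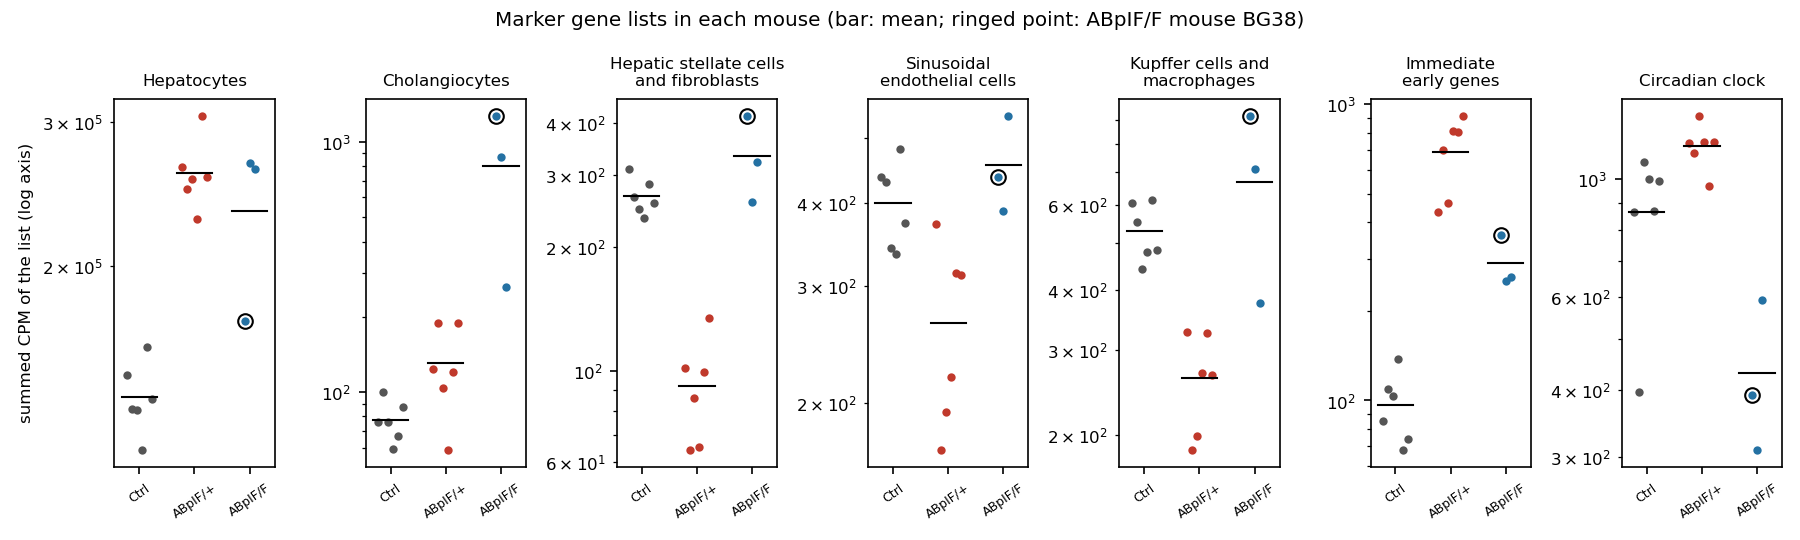
Summed CPM (log axis) of 5 cell type marker lists, of immediate early genes and of clock genes in each mouse, with a bar at each group mean and a ring around the ABpIF/F mouse BG38. The sums of stellate cell and of macrophage markers are lowest in the 6 ABpIF/+ mice. The cholangiocyte sum, in ABpIF/F livers mostly *Spp1*, is highest in the 3 ABpIF/F mice with BG38 at 1274 CPM. The sum of immediate early genes is highest in the ABpIF/+ mice.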

How the data were processed

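Frozen liver RNA was sequenced as stranded, paired-end mRNA libraries. The authors aligned the reads with HISAT2 to mm10 (GRCm38) and counted them with featureCounts 2.0.8. The gene annotation and strand setting of the counting are not given in the sources used here. The values used are the deposited raw counts of 27179 genes, of which 20380 have a read, in 15 columns, 1 per mouse. The study lists 23 samples, 8 mice being named by 2 and 7 by 1, so libraries of a mouse were not told apart. A second table holds the same counts (0 of 271790 values differ) and the authors' fold changes and p-values, which were not used, as were not 5 columns headed by bare numbers.

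Counts were fitted in R 4.3.3 with edgeR 4.0.16 (TMM, all genes, robust dispersions, legacy quasi-likelihood F-test, 3 groups in 1 fit, Benjamini-Hochberg over all genes). Standard errors were derived from the F statistic and 95% intervals from its t quantile. Log2 CPM used a prior count of 2. The script was tested on simulated data. Total counts of 24742910 to 32262649 per mouse give a floor of 3 counts, covering counting error only. Positions and exon lengths came from GENCODE M21 (GRCm38) and promoters from RefSeq (GRCm38.p6), which matched 8 of 10 members. Alternatives were RLE size factors, DESeq2 1.42.0, filterByExpr, the edgeR 4 method, no robust estimation, other thresholds, only the groups compared, leaving out each mouse, BG3 as the only Ctrl mouse and a clock score covariate. All members are named, and of each other list at most 3 called genes per direction and comparison by size of change, apart from the core kinase genes, which were named after their values were seen. For each member the gene with the most similar log2 CPM profile is named, apart from 1 that is not reported here. Members and lists were chosen with earlier results of these data known. The proteomics of the study was not analysed here.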

Additional observations from a re-analysis of the deposited data

Results flagged for a closer look

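The change from Ctrl differed between the mutant groups in 3 members, by the edgeR test of ABpIF/+ against ABpIF/F, which is the test of that difference. *Ankrd1* differed by -4.74 on the log2 scale, *Axl* by -1.66 and *Amotl1* by -1.14, each with the lower level in ABpIF/+ livers, and in each the 6 ABpIF/+ mice lay below the 3 ABpIF/F mice. No sample stood far from its group in the 20 groups of 6 mice that Dixon's test with a critical value of 0.625 could be applied to. The ABpIF/F group, with 3 mice, was not tested, although its mouse BG38 had the highest value in 9 of the 10 members.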

How the results depend on the processing

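Of 750 values of single members under an alternative, 679 kept direction and call, 43 lost a call, 14 gained one and 14 changed sign, and of 225 counts 192 stayed within 1.5 times. *Ankrd1* stayed called in 24 of 25 alternatives in ABpIF/F vs Ctrl and in ABpIF/+ vs ABpIF/F, and *Wwtr1* in 24 of 25 in ABpIF/+ vs Ctrl. The *Ankrd1* call in ABpIF/F vs Ctrl was lost with BG3 as the only Ctrl mouse (5.35). Its call in ABpIF/+ vs ABpIF/F was lost with the clock score (-4.10). Counts are given below for ABpIF/+ vs Ctrl, ABpIF/F vs Ctrl and ABpIF/+ vs ABpIF/F, in that order, where they moved. A log2 fold change of at least 2, which fewer genes can pass, left 0 and 1 members (first and last comparison), 0 and 5 signature genes (first and second) and 3, 3 and 2 regulators. An adjusted p under 0.05 gave 7 signature genes in the first, and the edgeR 4 method 8 regulators in the second. With BG3 as the only Ctrl mouse, assumed to vary like the other groups, fewer genes of each list were called against Ctrl. The member called in both comparisons was *Wwtr1*, at 1.68 in ABpIF/+ and 1.12 in ABpIF/F. *Ankrd1* was not called in ABpIF/F, at 5.35. With the clock score 1 and 0 members (second and last), 2, 4 and 1 signature genes and 3 and 1 regulators (second and last) were called. Leaving out each mouse gave 1 to 4 and 1 to 3 members against Ctrl, 2 to 6 and 3 to 8 signature genes, and 3 to 7 regulators in both the second and the last comparison. The fewest came without BG40 for members in ABpIF/+ vs Ctrl, without malpa387, malpa462 or BG31 for signature genes there, and without BG38 for the lists in ABpIF/F vs Ctrl.

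Signs changed only where the change was small or not called. *Amotl1* in ABpIF/F vs Ctrl was -0.0084 with filterByExpr and -0.13 to 0.17 leaving out each mouse. *Amotl2* in ABpIF/+ vs ABpIF/F was -0.00090 with only these groups, -0.32 with the clock score and -0.15 to 0.27 leaving out each mouse. In ABpIF/+ vs Ctrl *Ccn1* was -0.13 to 0.15 leaving out each mouse, *Ajuba* -0.014 with the clock score and *Ankrd1* 0.67 with BG3 alone, and *Ccn2* in ABpIF/+ vs ABpIF/F was -1.34 to 0.071 leaving out each mouse. The cause was not tested. No paired analysis was possible because the replicate numbers only name libraries in deposit order and no number joins mice of different groups. With 3 ABpIF/F mice the intervals are wide, and low counts limit *Ankrd1*, *Fjx1* and *Tead4*.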

Other observations

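For 9 of the 10 members the gene with the most similar profile was looked up, by the root-mean-square difference of centred log2 CPM over the 15 mice among 12210 genes averaging 1 CPM or more. The difference was smallest for *Yap1* with *Faf2* (0.0625), *Tead1* with *Zc3h7b* (0.121), *Wwtr1* with *Trim3* (0.140) and *Amotl2* with *Mxd1* (0.157). *Axl* was most like *Adcy7* (0.192), *Amotl1* most like *Il1a* (0.195), *Ajuba* most like *Map3k21* (0.238) and *Ccn1* most like *Cdin1* (0.275). *Ccn2* with *Adgrg1* (0.606) had the largest difference of the 9, and its level also varied most among them between mice, with an SD of 1.28 log2 CPM. That SD was 0.138 for *Yap1* and 0.629 for *Wwtr1*. Because the difference depends on how much a level varies, it does not rank the members by likeness to their partners. The mice of all groups share their libraries and depths across genes, and a similar profile says nothing of shared control.

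The *Ccn2* to *Ccn1* ratio of levels per kilobase also moved. It was 0.383 ± 0.196 (SD, n = 6) in Ctrl and 1.10 ± 0.439 (SD, n = 6) in ABpIF/+ livers, with ranges of 0.0777 to 0.594 and 0.724 to 1.86 that did not overlap. The ABpIF/F mice had 1.67 (BG38), 0.662 (BG90) and 0.559 (BG183), the last within the Ctrl range. This ratio was computed after the levels were seen and was not tested.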
